A study of Mus musculus with 6 samples.

Results

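Seminal vesicle secretory protein genes encode the main secreted proteins of the seminal vesicle, an accessory gland of the male tract that lies against the prostate. Here 10 such genes were followed in RNA sequencing of mouse prostate, of 18697 genes counted. They were Svs1, Svs2, Svs3a, Svs3b, Svs4, Svs5, Svs6, Pate4, Ceacam10 and 9530003J23Rik. The first 8 were taken by name. Ceacam10 and 9530003J23Rik were chosen by their counts, which were high in the libraries rich in Svs counts, so the members' levels by library are given as a description. All 10 passed the low count filter.

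The specimens were prostates of mice with experimental autoimmune prostatitis (EAP), a model in which immunisation with prostate antigens leads to an inflamed gland. One group was given VUF11207, an agonist of the chemokine receptor CXCR7, into the peritoneum at 5 mg per kg and day over 14 days (3 libraries). The other was given DMSO by the same route, with the same amount and duration on its labels (3 libraries), and the EAP model was common to both groups. The labels state neither strain nor age, nor which mouse stands behind each library, so p-values measure only the spread between these libraries. The DMSO libraries are replicates 2 and 3 and a library whose column matched no sample's own file, called the unnumbered DMSO library. Its column name gives the vehicle but no model, route, dose or duration, so these are assumed from the labels of its group. Total counts ran from 20308018 to 33368058 per library.

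In mice the seminal vesicle epithelium makes these proteins under the control of androgens. After ejaculation, transglutaminase 4 of the anterior prostate (gene symbol Tgm4) cross-links several of them into the copulatory plug, while others coat sperm and modulate their capacitation. The proteins are among the most abundant of the gland. How much seminal vesicle tissue each specimen held is not known, and its part in the counts was not tested. In bulk tissue, fewer cells of a type and less RNA per cell cannot be told apart.

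The Svs2 to Svs6 genes form a gene cluster, and 6 of the 10 members lay within 98.5 kb of chromosome 2 in mm10 (164235929 to 164334396, GENCODE M21). From low to high coordinates they were Svs2, Svs3b, Svs4, Svs3a, Svs6 and Svs5. Svs1 lay on chromosome 6 from 48986861 to 48991722, Ceacam10 on chromosome 7 from 24777206 to 24784657, Pate4 on chromosome 9 from 35607093 to 35611941, and 9530003J23Rik on chromosome 10 from 117232237 to 117238703. Each is annotated as protein coding, and RefSeq gives Svs7 as a synonym of Pate4 and Lyzf1 as one of 9530003J23Rik.

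Svs5 and Svs6 are shown first, because their upstream sequences were nearly the same while their counts were not. The 250 bases before each RefSeq start are printed 5′ to 3′ (GRCm38.p6), for Svs5 at chr2:164332515-164332764 and for Svs6 at chr2:164316501-164316750, both on the plus strand. Capitals mark bases that differed or had no partner in the global alignment of the pair.
Svs5: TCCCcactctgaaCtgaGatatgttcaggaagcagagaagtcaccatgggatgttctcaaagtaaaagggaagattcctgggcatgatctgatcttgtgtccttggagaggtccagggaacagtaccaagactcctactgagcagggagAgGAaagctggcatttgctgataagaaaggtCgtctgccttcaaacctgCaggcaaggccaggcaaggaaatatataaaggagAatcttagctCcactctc
Svs6: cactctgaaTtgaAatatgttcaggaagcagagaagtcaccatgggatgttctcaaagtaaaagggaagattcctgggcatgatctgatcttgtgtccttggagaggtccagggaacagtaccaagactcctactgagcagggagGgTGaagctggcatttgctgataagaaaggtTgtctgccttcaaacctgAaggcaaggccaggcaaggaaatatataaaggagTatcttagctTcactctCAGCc
They were identical at 237 of 254 aligned positions (93.3%). The genes are neighbours, with 14.3 kb between them.

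Svs3a and Svs3b are a second such pair, and their counts stayed near each other in every library. Svs3a lies at chr2:164289017-164289266 on the plus strand and Svs3b at chr2:164256644-164256893 on the minus strand (upstream windows, marked in the same way).
Svs3a: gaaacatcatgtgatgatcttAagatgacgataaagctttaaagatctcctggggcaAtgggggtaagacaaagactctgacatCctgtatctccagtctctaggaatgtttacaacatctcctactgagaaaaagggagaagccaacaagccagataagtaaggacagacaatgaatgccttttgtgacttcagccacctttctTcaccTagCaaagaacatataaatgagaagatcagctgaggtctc
Svs3b: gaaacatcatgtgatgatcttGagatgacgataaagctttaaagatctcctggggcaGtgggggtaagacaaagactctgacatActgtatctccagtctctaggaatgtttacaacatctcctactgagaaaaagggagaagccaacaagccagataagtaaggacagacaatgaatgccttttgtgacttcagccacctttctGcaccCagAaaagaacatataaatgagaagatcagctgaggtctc
They were identical at 244 of 250 positions (97.6%). The next closest pair of members, Svs3a and Svs4, reached 57.1%. An upstream window was at hand for 9 members, Pate4 being the exception.

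Short motifs, chosen after the sequences were seen, were searched on both strands of these windows as a description. TATAAA, the core of the TATA box, was present in 6 of the 9, namely Svs2, Svs3a, Svs3b, Svs4, Svs5 and Svs6, and in 13.0% of 27025 promoters of the same length. GATAA, the core of GATA factor motifs, was present in 7 of the 9, all but Ceacam10 and 9530003J23Rik, and in 23.02% of the promoters. AGAACA, the repeat unit of androgen and glucocorticoid response elements, was present in 6 of the 9 (Svs1, Svs3a, Svs3b, Svs5, Svs6 and Ceacam10) and in 16.2% of the promoters. The full palindrome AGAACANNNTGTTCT, which contains AGAACA on both strands, was in none of the 9 and in 0.00370% of the promoters. The forkhead motif TGTTTAC was present in Svs3a and Svs3b alone among the 9 members, and in 3.09% of the promoters. The 4 genes printed above thus held 2 closely related pairs of windows and are not independent cases. The 6 genes with TATAAA were all those of the chromosome 2 cluster, and the 7 with GATAA were these and Svs1. Their shares are thus not counts over independent genes either.

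Together the 10 genes held 28.4%, 3.14% and 3.56% of all counts in VUF11207 replicates 1, 2 and 3, against 0.745%, 65.4% and 16.3% in the unnumbered DMSO library and DMSO replicates 2 and 3. The groups overlapped, and the highest and the lowest library were both DMSO libraries. The mean log10 of this percent share was 0.834 ± 0.537 with VUF11207 and 0.967 ± 0.995 with DMSO (SD, n = 3 each), a difference smaller than the spread within either group. The direction of this difference turned when any of VUF11207 replicate 2, VUF11207 replicate 3 or DMSO replicate 2 was left out, the difference in log10 share then being 0.0354, 0.00802 and 0.291, against -0.133 with all 6. Wilson 95% intervals of the single shares reached at most 0.0164 percentage points to either side and covered counting error only.

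Levels are given below as CPM, counts relative to the library total, with each total scaled by the trimmed mean of M values (TMM). The TMM factors ran from 1.01 to 1.25 with VUF11207 and were 1.33, 0.426 and 1.23 with DMSO. Since the total of DMSO replicate 2 was multiplied by 0.426, its CPM of the 10 members summed to as much as 1535960.

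Svs2 encodes a protein of the copulatory plug that also binds sperm and holds back capacitation. It was at 100390, 13080.5 and 7846 CPM in VUF11207 replicates 1, 2 and 3, against 1781 CPM in the unnumbered DMSO library and 355999 and 80869 CPM in DMSO replicates 2 and 3. DMSO replicate 2, VUF11207 replicate 1 and DMSO replicate 3 were thus the 3 highest, and the unnumbered DMSO library the lowest. Svs5, a small secreted protein of the same gene cluster, was at 69200 (VUF11207 replicate 1), 6737 and 11972 CPM with VUF11207, against 1565, 378201 and 32738 CPM with DMSO in the same order of libraries. Pate4, a Ly6-like secreted protein also called caltrin, which is known to inhibit calcium uptake by sperm, was at 15985, 4517 and 2710 CPM with VUF11207, against 534, 68340.4 and 15655 CPM with DMSO. The 3 highest libraries of Svs5 and Pate4 were those of Svs2, in the same order.

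Svs1 encodes a secreted protein related to copper amine oxidases that enters the plug. It was at 18954, 51.6 and 1127 CPM in VUF11207 replicates 1, 2 and 3, against 452, 115304 and 199 CPM in the unnumbered DMSO library and DMSO replicates 2 and 3. Here DMSO replicate 3, among the 3 highest for Svs2, was next to the lowest, and VUF11207 replicate 2 was the lowest. Svs6, the neighbour of Svs5, was at 14359, 41.8 and 712 CPM with VUF11207, against 150 CPM in the unnumbered DMSO library, 114513 CPM in DMSO replicate 2 and 218 CPM in DMSO replicate 3. Ceacam10, a secreted member of the carcinoembryonic antigen family that binds sperm, was at 3588, 11.5 and 264 CPM with VUF11207, against 58.3, 27202 and 64.0 CPM with DMSO. For Svs6 and Ceacam10 too, VUF11207 replicate 2 was the lowest library, and DMSO replicate 3 stood far below VUF11207 replicate 1.

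Svs3a and Svs3b encode closely related plug proteins that transglutaminase cross-links. Svs3a was at 6005, 15.1 and 307 CPM with VUF11207, against 107, 48850 and 81.8 CPM with DMSO, and Svs3b at 6557, 15.7 and 204 CPM, against 98.9, 47651 and 81.3 CPM. Both were thus lowest in VUF11207 replicate 2. Of the 50-base stretches of Svs3a transcripts in GENCODE M21, 42.5% also occurred in Svs3b, and how the authors' counting treated such reads is not given, so the split between these genes is uncertain. Svs2, Svs4, Svs5, Svs6, Pate4 and 9530003J23Rik shared no such stretch with another gene, Svs1 shared 0.550% and Ceacam10 3.003%.

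Svs4, a small protein known in rodents for effects on immune cells and on coagulation, was at 43583, 503 and 5992 CPM with VUF11207, against 529.6, 358872 and 2527 CPM with DMSO. VUF11207 replicate 3 exceeded DMSO replicate 3 for Svs4, whereas it was lower for Svs2. The last member, 9530003J23Rik, was at 2425, 185 and 116 CPM with VUF11207, against 320, 21030.5 and 230 CPM with DMSO. Outside VUF11207 replicate 1 and DMSO replicate 2 it ran only from 116 to 320 CPM, with the highest of these 4 values in the unnumbered DMSO library.

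**Figure D1:**
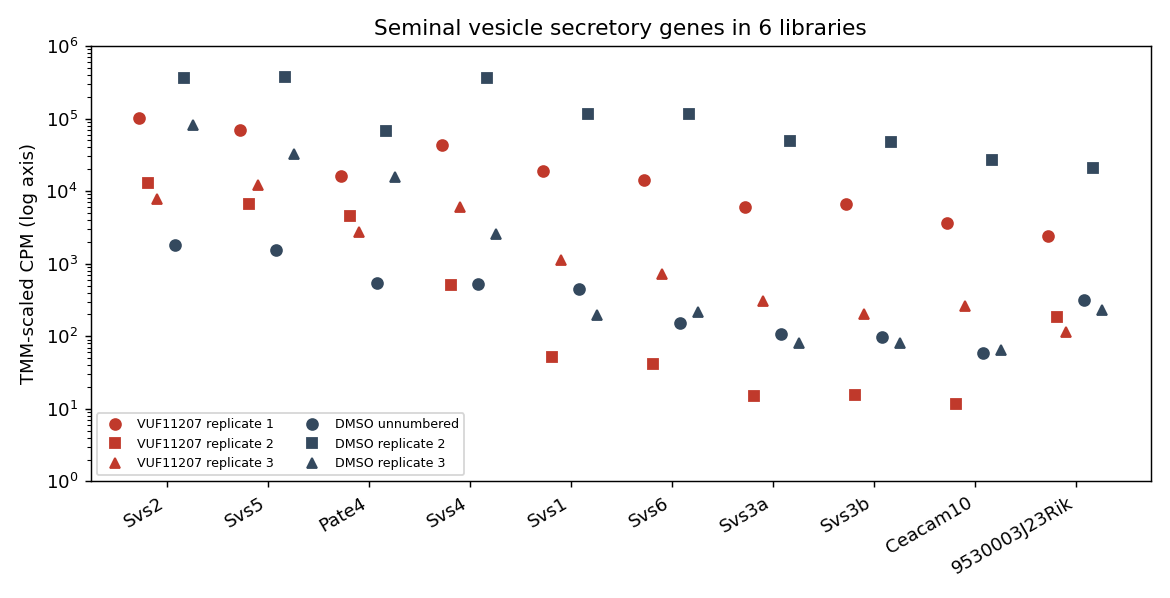
TMM-scaled CPM (log axis) of the 10 seminal vesicle secretory genes, with 1 point per library, VUF11207 in red left of DMSO in dark blue. DMSO replicate 2 (dark square) was the highest library for each gene, whereas DMSO replicate 3 (dark triangle) was high for Svs2, Svs5 and Pate4 and low for Svs1, Svs6, Svs3a, Svs3b and Ceacam10.

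From the lowest to the highest library, CPM differed 2233-fold for Svs1, 2741-fold for Svs6, 3238-fold for Svs3a and 2358-fold for Ceacam10, but 199.9-fold for Svs2, 242-fold for Svs5 and 128-fold for Pate4. In log2 CPM the median range of the members was 10.3, against 1.15 over the 13753 genes tested. The median SD of log2 CPM within groups was 4.39 for the members and 0.44 for all genes tested. These spreads bear on why the members were chosen and were not tested.

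Count ratios between members were taken within each library, so that library size and scaling cancel. Members fell into sets by these ratios, formed after the ratios were seen and not tested. Within Svs1, Svs3a, Svs3b, Svs6 and Ceacam10, the count ratio of each of the 10 pairs moved by 1.58-fold to 3.29-fold over the 6 libraries. Within Svs2, Svs5 and Pate4, the 3 pairs moved by 2.17-fold to 3.77-fold. Between these sets, the 15 pairs moved by 42.0-fold to 214-fold. Svs1 and Ceacam10 lie on other chromosomes than Svs3a, Svs3b and Svs6, and Pate4 on another than Svs2 and Svs5. Each set thus held genes of more than 1 chromosome. Within the chromosome 2 cluster, however, Svs2 and Svs5 were the outermost genes, with Svs3b, Svs4, Svs3a and Svs6 between them. Whether position bears on the sets was not tested.

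Against each 1000 counts of Svs2, there were 189, 3.95 and 144 counts of Svs1 in VUF11207 replicates 1, 2 and 3, against 254, 324 and 2.46 in the unnumbered DMSO library and DMSO replicates 2 and 3. VUF11207 replicate 2 and DMSO replicate 3, one library of each group, thus stood apart from the other 4. The ratio of Svs5 to Svs6 counts was 4.82, 161 and 16.8 with VUF11207, against 10.4, 3.30 and 150 with DMSO. The near identity of the upstream windows of Svs5 and Svs6, printed above, therefore went with count ratios that differed 48.8-fold. The ratio of Svs3a to Svs3b was 0.916, 0.964 and 1.51 with VUF11207, against 1.08, 1.03 and 1.006 with DMSO, with the uncertainty from shared stretches.

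Svs4 lay between the sets. Per 1000 Svs2 counts it had 434, 38.5 and 764 counts with VUF11207, against 297, 1008 and 31.2 counts with DMSO. It was low in the libraries in which Svs1 was low, VUF11207 replicate 2 and DMSO replicate 3, but by less. Its ratio to the 5 genes of the Svs1 set moved by 3.97-fold to 10.8-fold, and to Svs2, Svs5 and Pate4 by 12.7-fold to 47.1-fold. The ratios of 9530003J23Rik to the other members moved by 27.2-fold to 63.3-fold, so it belonged to neither set.

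**Figure D2:**
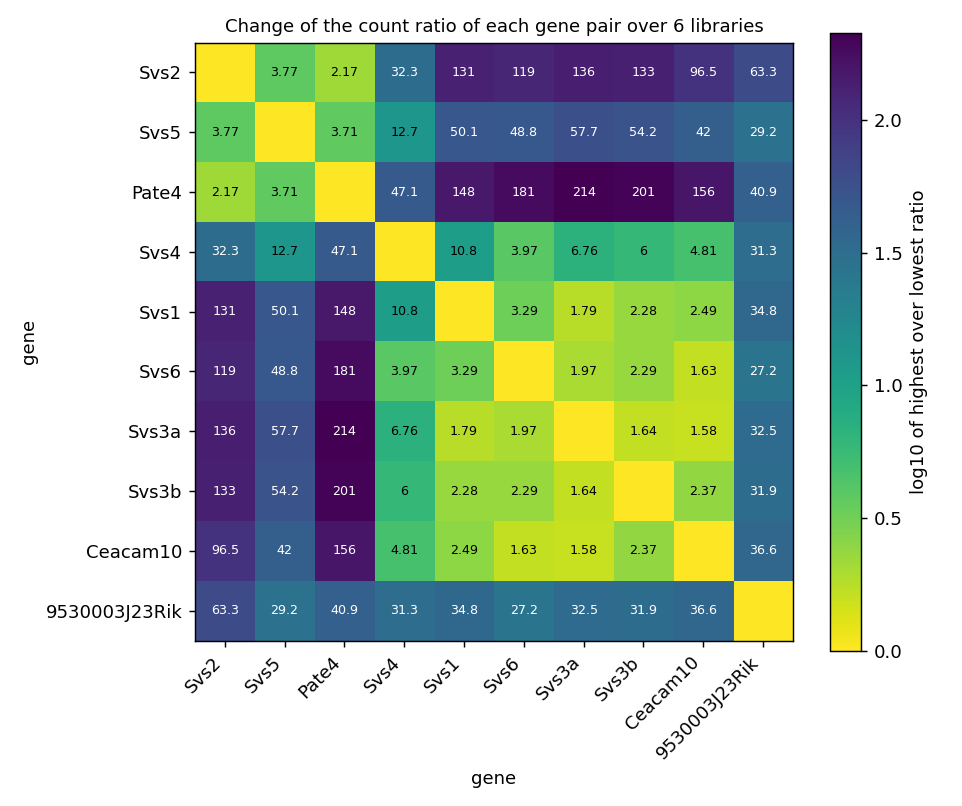
Highest over lowest count ratio over the 6 libraries for each pair of members, with colour giving its log10. Yellow and light green blocks of small change held Svs2, Svs5 and Pate4, and Svs1, Svs6, Svs3a, Svs3b and Ceacam10, and pairs between them moved by 42.0-fold or more.

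As shares of the summed counts of the 10 genes, Svs2 took 35.7%, 52.0% and 25.1% in VUF11207 replicates 1, 2 and 3, against 31.8%, 23.2% and 61.0% in the unnumbered DMSO library and DMSO replicates 2 and 3. Svs5 took between 24.6% and 38.3% in each library. Svs4 took 15.5%, 2.001% and 19.2% with VUF11207, against 9.46%, 23.4% and 1.90% with DMSO. Ceacam10 took 0.0458% in VUF11207 replicate 2 (exact binomial 95% interval 0.0411% to 0.0510%, from 344 counts) and 0.0482% in DMSO replicate 3 (0.0461% to 0.0504%, from 1982 counts). Both shares were thus well measured, and at least 0.846% was Ceacam10's share in the other 4 libraries.

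Divided by exon length, Svs5 ranked first in each of the 6 libraries, with 34.8% to 52.0% of the members' counts per kilobase. Svs2 followed with 20.5% ± 10.6 and Svs4 with 15.5% ± 10.8 (mean and SD over 6 libraries), which did not differ beyond their spread. Pate4 had 9.62% ± 5.66 and Svs6 5.33% ± 4.99, also within their spread. Svs1, Svs3a, Svs3b, 9530003J23Rik and Ceacam10 had means from 0.538% to 1.54% with SDs from 0.432% to 1.29%. In each of the 6 libraries Svs1 stood above Svs3a, and Svs3a above Ceacam10. The ranks of Svs3b and 9530003J23Rik changed between libraries, so the rest of the order is not settled. The values of Svs3a and Svs3b carry the uncertainty from shared stretches.

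**Figure D3:**
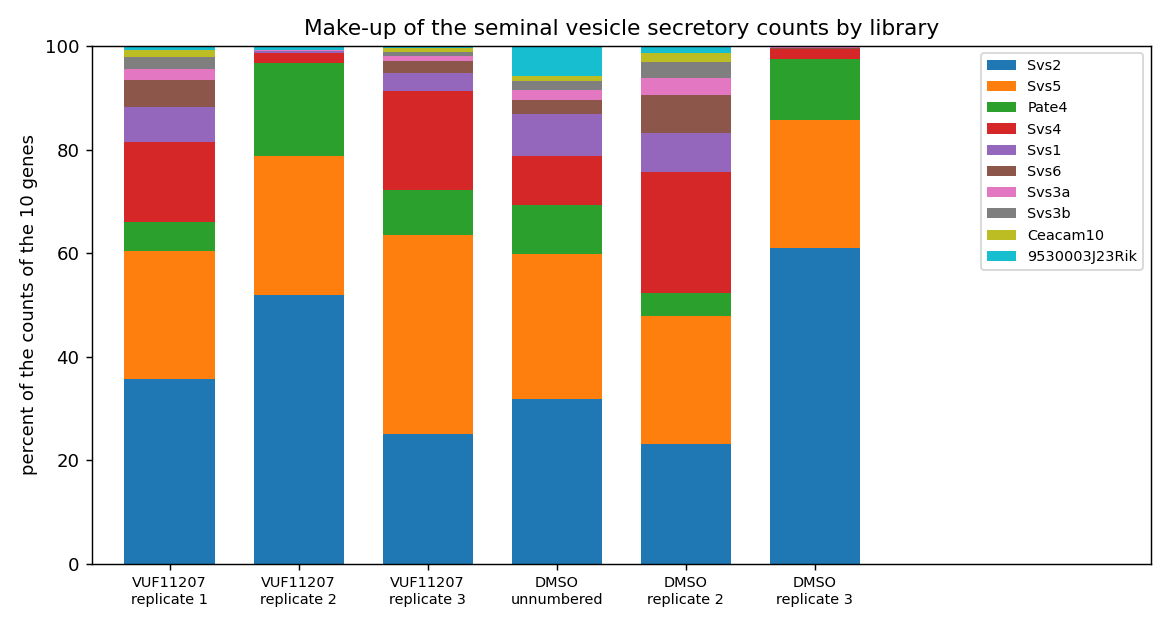
Stacked percent of the summed counts of the 10 genes by library, VUF11207 libraries left of DMSO libraries. In VUF11207 replicate 2 and DMSO replicate 3 nearly all counts were of Svs2, Svs5 and Pate4, while the other 4 libraries also held Svs4, Svs1 and Svs6.

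The comparison of VUF11207 with DMSO asks how activation of CXCR7 bears on the inflamed prostate. No member passed it. In edgeR's quasi-likelihood test on all 13753 genes, 0 of 10 members had an adjusted p under 0.05 (0% of all genes tested) and 0 an unadjusted p under 0.05 (1.43% of all genes tested), the lowest unadjusted p being 0.189. For 0 of 10 the groups did not overlap (5.57% of all genes tested). All 10 log2 fold changes were negative (55.3% of all genes tested), with a median of -2.82 against -0.04 over all genes tested. Because the members share libraries and chosen levels, these counts are a description.

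The single log2 fold changes had wide errors. Svs2 averaged 40439 CPM ± 51985 with VUF11207 and 146217 CPM ± 185931 with DMSO (SD, n = 3 each). Its log2 fold change was -1.85 ± 1.97 (SE; edgeR adjusted p = 1), with a 95% interval from -6.55 to 2.84. Svs1 averaged 6711 CPM ± 10616 with VUF11207 and 38652 CPM ± 66383 with DMSO. Its log2 fold change was -2.53 ± 2.67 (SE; edgeR adjusted p = 1), with an interval from -8.89 to 3.84. Such intervals include both large falls and large rises, so equality of the groups was not shown either. The remaining 8 members had log2 fold changes from -2.99 (9530003J23Rik) to -1.86 (Pate4), with standard errors from 1.58 to 2.81.

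For 8 of the 10 members the sign turned without DMSO replicate 2. Without it, the log2 fold change was 4.38 for Svs1, 4.78 for Svs6, 4.49 for Svs3a, 4.66 for Svs3b, 4.41 for Ceacam10, 3.46 for Svs4, 1.74 for 9530003J23Rik and 0.78 for Svs5, while Svs2 and Pate4 stayed negative, at -0.0286 and -0.0622. Without VUF11207 replicate 1, by contrast, the values ran from -7.16 (Svs3b) to -2.95 (Pate4). Without both of these libraries, an alternative chosen after seeing the data, the genes of the Svs1 set were at 0.32 to 1.20 and Svs4 at 1.11, while Svs2, Svs5, Pate4 and 9530003J23Rik were at -1.98, -0.87, -1.16 and -0.85. No member passed the adjusted threshold in any of these fits.

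**Figure D4:**
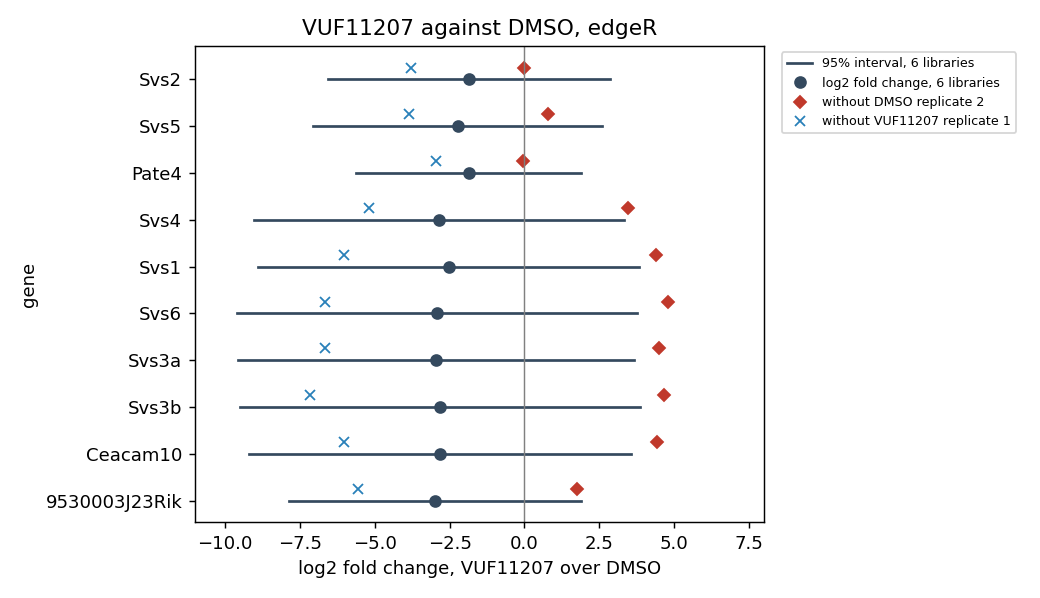
Log2 fold change of VUF11207 over DMSO for each member with its 95% interval over 6 libraries (circles and lines), without DMSO replicate 2 (diamonds) and without VUF11207 replicate 1 (crosses). All intervals span 0, and the diamonds lie above 0 for 8 of the 10 genes.

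Of 10 other seminal vesicle secretory genes listed, 8 were in the table and 6 were tested, 1 with a positive and 5 with a negative log2 fold change (median -2.17), and 0 passed. Sva, which encodes seminal vesicle antigen, a protein that binds sperm and suppresses their motility, was at 2868, 8.08 and 239 CPM with VUF11207, against 38.2, 36789 and 57.4 CPM with DMSO. Spinkl, a Kazal-type inhibitor secreted by the seminal vesicle, was at 3375, 7.95 and 784 CPM, against 38.1, 28479 and 47.9 CPM. Both were lowest in VUF11207 replicate 2 and in DMSO replicate 3 far below VUF11207 replicate 1, like Svs1. Serpine2, a serine protease inhibitor, was at 864, 169.7 and 101 CPM, against 85.1, 2854 and 883 CPM, and thus high in DMSO replicate 3, like Svs2. Spink1, a trypsin inhibitor that the prostate also secretes, was the positive one, at 14267, 26122 and 39100.4 CPM, against 1241, 16813 and 8339 CPM.

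Likeness of pattern was measured as the mean absolute difference in log2 CPM over the 6 libraries, each gene taken relative to its own mean, among 11552 other genes. Nearest to Svs2 were Lpo (0.48), which encodes lactoperoxidase, the nuclear receptor gene Nr4a3 (0.49), the POU domain factor gene Pou3f3 (0.49), Cdo1 (0.52), which encodes cysteine dioxygenase, and Serpine2 (0.61). For comparison, Pate4 lay at 0.43 and Svs5 at 0.55 from Svs2, and Svs1 at 2.72. Nearest to Svs1 were Dnase2b (0.42), which encodes an acid DNase, Doxl2 (0.44), Pate14 (0.45), Sva (0.55) and Spinkl (0.69). Lpo fell to 0.111 CPM in the unnumbered DMSO library and Doxl2 to 0 in VUF11207 replicate 2, so their distances rest partly on few counts. Among the members, Svs3a lay at 0.26 and Ceacam10 at 0.30 from Svs1. The 5 genes nearest to Svs2 and the 5 nearest to Svs1 had no gene in common. With Svs2 and Svs1 at 2.72 from each other, no gene could be that near to both, so this adds nothing to that distance.

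Pou3f3 was at 66.2, 12.4 and 12.7 CPM with VUF11207, against 1.29, 113 and 59.4 CPM with DMSO. Dnase2b was at 191, 0.402 and 6.25 CPM, against 1.85, 1139 and 1.29 CPM. In DMSO replicate 3, then, Pou3f3 was near its level in VUF11207 replicate 1, while Dnase2b was far below it. Nearest to the mean of the members were genes that included Popdc3 (0.64), Gad2 (0.74), Pate14 (0.84) and Pate6 (0.85), of which Popdc3 was at most at 14.9 CPM.

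Some markers of neighbouring tissues were high in libraries with many member counts, and their part in these results was not tested. Of 5 transcription factor genes of the Wolffian duct, from which the seminal vesicle, vas deferens and epididymis develop, Lhx1 was at 0 in all libraries and 4 were tested. Pax2 was at 14.8, 0.939 and 2.40 CPM with VUF11207, against 0.0740, 16.5 and 13.6 CPM with DMSO. Pax8 was at 19.9, 0.168 and 2.40 CPM, against 0.296, 13.5 and 14.9 CPM, and Emx2 at 12.8, 0.738 and 1.52 CPM, against 0, 6.83 and 15.7 CPM. DMSO replicate 3 was thus among the 3 highest libraries for each of these genes, although Svs1 and its set were low there. Gata3, the remaining one, had its highest level in the unnumbered DMSO library, at 457 CPM, and did not follow the members. The summed level of the list, which did not follow them either, ran from 100 to 203 CPM with VUF11207 and from 158 to 458 CPM with DMSO, most of it Gata3.

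Of 7 epididymis and vas deferens genes, Lcn8 and Cst8 were at 0 in all libraries and 3 were tested. Akr1b7, an aldo-keto reductase abundant in the mouse vas deferens, was at 7143, 41.4 and 1148 CPM with VUF11207, against 28.0, 5636 and 3131 CPM with DMSO. Crisp1, a sperm-coating protein of the epididymis, was at 755, 8.21 and 163 CPM, against 3.70, 633 and 645 CPM. Both were high in the 3 libraries in which Pax2 was high. Lcn5, the remaining gene tested, was at 2.09, 0 and 0.237 CPM, against 0, 3.17 and 0.323 CPM. It was thus low in DMSO replicate 3, unlike Pax2, and at few CPM in every library. The summed level of this list ran from 49.7 to 7902 CPM with VUF11207 and from 31.7 to 6273 CPM with DMSO.

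The labelled tissue was present in each library: of 10 prostate secretory and identity genes all were tested, and their summed level ran from 69859 to 156402 CPM with VUF11207 and from 39763 to 70321 CPM with DMSO. Sbp, which encodes spermine-binding protein, was at 66177, 64846 and 143089 CPM with VUF11207, against 3707, 50346 and 66809 CPM with DMSO. Tgm4, whose enzyme cross-links seminal vesicle proteins, was at 624, 8512 and 1645 CPM, against 16890, 828 and 954 CPM, and Pbsn, the secreted protein probasin, at 623, 6734 and 2650 CPM, against 17682, 681 and 769 CPM. Tgm4 and Pbsn were thus highest in the unnumbered DMSO library and VUF11207 replicate 2, the libraries with the smallest summed shares of seminal vesicle counts. Most of the summed level was Sbp in every library but the unnumbered DMSO library, where most of it was Tgm4 and Pbsn. Of this list 7 genes had a positive and 3 a negative log2 fold change (median 1.27). None passed the adjusted threshold, while 5 of 10 had an unadjusted p under 0.05 in edgeR (1.43% of all genes tested), namely Msmb, Apof, Defb50, Wfdc3 and Mme. Because the list was chosen with earlier results of these data known, these counts are a description and show no enrichment. Defb50, a beta-defensin gene, was at 851, 1526 and 3410.4 CPM with VUF11207, against 157, 375 and 569 CPM with DMSO. Its groups did not overlap, nor did those of Msmb, Apof, Wfdc3, Mme and Hoxb13 (5.57% of all genes tested).

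Skeletal muscle genes followed another split. Myh4, a fast myosin heavy chain, was at 684, 1.006 and 41.7 CPM with VUF11207, against 0.0740, 3.31 and 664 CPM with DMSO, and the summed level of the 8 listed genes ran from 543 to 4897 CPM with VUF11207 and from 411 to 4473 CPM with DMSO. VUF11207 replicate 1 and DMSO replicate 3 were high, while DMSO replicate 2, with the most seminal vesicle counts, was low. The epithelial gene Krt8 was at 341, 248 and 383 CPM with VUF11207, against 219, 396 and 314 CPM with DMSO. Krt8 did not vary 2-fold between libraries, while the members varied at least 128-fold. Epcam, Cdh1 and Krt18 did not vary 2-fold either, but the listed basal epithelial genes, at lower levels, varied by more than that.

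**Figure D5:**
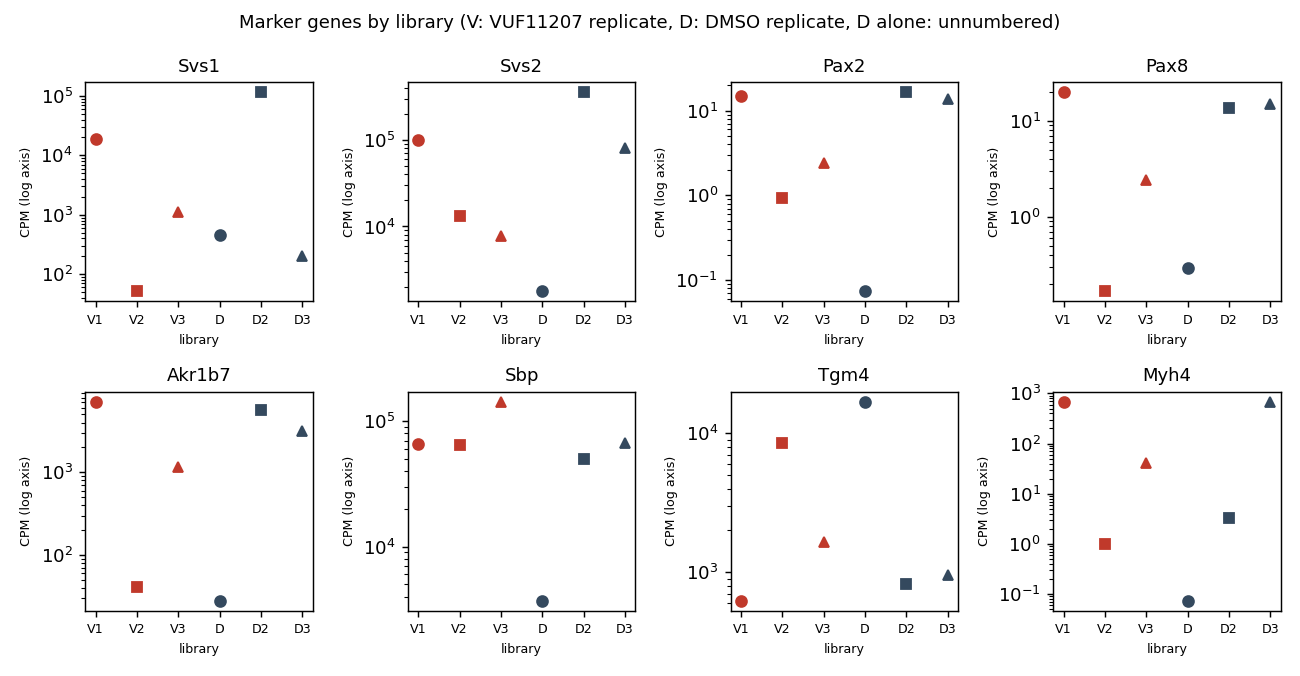
CPM (log axis, each panel with its own range) of 8 genes by library, VUF11207 replicates 1 to 3 (V1 to V3) left of the unnumbered DMSO library and DMSO replicates 2 and 3 (D, D2, D3). In D3, Pax2, Pax8 and Svs2 were near their levels in V1, at 13.6, 14.9 and 80869 CPM. Akr1b7 was at 3131 CPM in D3 against 7143 CPM in V1, and Svs1 at 199 CPM against 18954 CPM.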

How the data were processed

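Raw counts of reads for each gene symbol, in whole numbers, were deposited for 18697 genes and 6 libraries. Per the submitters' processing notes the authors used fastp, HISAT2, HTSeq and mm10. Versions, annotation, strand setting and the handling of multiply matching reads were not stated there. The counts of 5 libraries were identical to those in their own files. Labels gave the groups, except for the unnumbered DMSO library, which was placed by its column name.

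Counts were filtered by filterByExpr (13753 genes left), scaled by TMM and tested with edgeR 4.0.16 (quasi-likelihood, robust, two-sided, Benjamini-Hochberg over all genes, threshold 0.05). Standard errors were derived from the F statistic of each gene. The fit was also run on simulated counts with known changes, the outcome of which is not reported here and is not used as support. DESeq2 1.42.0, other scalings, no filter, a block and leaving out libraries were alternatives. Log2 CPM used a prior count of 2. Ratios and shares used raw counts, lengths the exon union of GENCODE M21, upstream windows RefSeq (GRCm38.p6), aligned with Biopython 1.88.

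The members and lists were chosen with earlier results of these data known. The text names all members, up to 4 genes of each list by mean CPM, and the 5 genes nearest to each of 3 profiles with a mean log2 CPM of at least 1, leaving out Gm, Rik and LOC names; some genes under this rule are not reported here. R 4.3.3 and Python 3.11.15 were used.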

Additional observations from a re-analysis of the deposited data

How the results depend on the processing

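Of 130 refits over the 10 genes and 13 alternatives, 110 kept the negative direction. DESeq2 gave no p for 7 members, Svs2, Svs5 and Pate4 being the others, and in the 123 refits with an adjusted p none was under 0.05. Svs2 and Pate4 stayed negative with any 1 library left out, from -3.80 to -0.0286 and from -2.95 to -0.0622, while the direction of the other 8 turned without DMSO replicate 2. With 1 library left out, the log2 fold change of Svs1 ran from -6.02 to 4.38, of Svs3a from -6.65 to 4.49, of Svs3b from -7.16 to 4.66, of Svs4 from -5.20 to 3.46, of Svs5 from -3.86 to 0.78, of Svs6 from -6.65 to 4.78, of Ceacam10 from -6.03 to 4.41 and of 9530003J23Rik from -5.57 to 1.74. The median of the members ran from -5.79 to 3.92 and the difference in log10 summed share from -0.680 to 0.291. Without the 2 libraries with the largest seminal vesicle shares, chosen after seeing the data, Svs1, Svs3a, Svs3b, Svs4, Svs6 and Ceacam10 were at 0.89, 0.80, 0.32, 1.11, 1.06 and 1.20.

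The block used the numbers in the column names, which both groups share and which are not stated to mark anything in common. They put the unnumbered DMSO library, which has such a column number but no established replicate number, with VUF11207 replicate 1. Libraries of the same column number did not deviate together (correlations of deviations -0.593 for that pair, and -0.332 and 0.0525 for replicates 2 and 3), so the block is not read as a pairing. With the replicate block the median of the members was 1.12, and Svs1, Svs3a, Svs3b, Svs4, Svs6 and Ceacam10 were at 1.99, 1.61, 1.14, 1.10, 1.54 and 1.75, with 0 genes called in all.

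Over all genes, 0 were called in edgeR (196 at an unadjusted p under 0.05), 4 in DESeq2 (310 at an unadjusted p under 0.05) and 3 with library totals alone, all toward higher values. None was a member, 7 of which DESeq2 could not call. Library totals moved the median of all genes to 0.14, against -0.04, and that of the members to -1.58. The cause of these changes was not tested. The 70 differences in composition under alternatives moved by less than 1 SD, but that SD was wide. The difference in the share of Svs2, -1.05 percentage points with all 6 libraries, was -8.79 without DMSO replicate 2 and 10.1 without DMSO replicate 3, and that of Svs4, 0.650 with all 6, was 6.54 and -4.19. Each group had 3 libraries, and counting error was small against the spread between them.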

Other observations

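Relatives and neighbours of the members did not share one pattern. Of 14 listed genes of the Pate family and its kin, 7 were tested and 0 of them passed, all with negative log2 fold changes (median -1.13). Pate14 was at 2450, 10.7 and 359 CPM in VUF11207 replicates 1, 2 and 3, against 66.7, 21995 and 70.1 CPM in the unnumbered DMSO library and DMSO replicates 2 and 3, much as Svs1. Pate6 was at 489, 20.8 and 98.3 CPM, against 7.65, 3820 and 118 CPM. Pate8 was at 71.7, 6.81 and 9.36 CPM, against 1.29, 20.2 and 76.8 CPM, with its highest level in DMSO replicate 3. Pate9 went the other way, at 72.5, 1488 and 317 CPM, against 4018, 147 and 93.7 CPM, highest in the unnumbered DMSO library, which had the fewest counts of the 10 members.

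Ceacam1 and Ceacam2, the relatives of Ceacam10 that were tested, were at 97.1 to 257 and 104 to 274 CPM over the 6 libraries, while Ceacam10 ran from 11.5 to 27202 CPM. Of the lysozyme genes, Lyz2, a marker of macrophages, was at 48.1, 109 and 43.8 CPM with VUF11207, against 215, 44.6 and 85.1 CPM with DMSO. Aoc1, a copper amine oxidase gene that shared sequence stretches with Svs1, was at most at 2.68 CPM.

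Of 26 listed neighbours of the Svs genes on chromosome 2, 16 were tested, 8 with a positive and 8 with a negative log2 fold change (median -0.01), and 0 passed. Sdc4 and Pigt, a syndecan gene and a gene of GPI anchor attachment, were at 56.3 to 147 and 31.1 to 72.1 CPM. Wfdc15b, a whey acidic protein family gene, was at 154, 17.5 and 80.2 CPM with VUF11207, against 1.44, 160 and 168 CPM with DMSO. Wfdc3 was at 168, 146 and 594 CPM, against 7.21, 49.9 and 72.2 CPM, a pattern unlike that of Svs2 or Svs1. Its groups did not overlap (5.57% of all genes tested).

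Lists of other cell types gave these summed levels. Smooth muscle genes ran from 4143 to 19400 CPM with VUF11207 and from 4361 to 15404 CPM with DMSO, T cell genes from 5.95 to 22.1 and from 5.63 to 19.2 CPM, macrophage genes from 74.7 to 153 and from 74.4 to 266 CPM, and urothelial genes from 128 to 429 and from 55.3 to 235 CPM. The sums of T cell, macrophage and smooth muscle genes were each highest in VUF11207 replicate 2 and the unnumbered DMSO library. The T cell sums were low, and not every gene followed them. Cd4 was highest in DMSO replicate 3, and Cd8a was lowest in VUF11207 replicate 2. The part of these lists in the results was not tested.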
